A study of Homo sapiens with 11 samples.

Results

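The tight junction genes CLDN1, CLDN2, CLDN3, CLDN4, CLDN7, CLDN10, CLDN16, OCLN, TJP1 and F11R were taken by name from the RNA-seq data of HK2 cells. They are 10 of 58243 genes quantified, and all 10 belong to the 19645 protein-coding genes that could be joined to the GRCh37 annotation. They were chosen by their known place in the junction together with their FPKM in these libraries, among them an unequal level of CLDN4, and their peaks. Their levels are therefore given as a description, with no test.

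HK2 is an immortalised human kidney tubule line, which the labels call proximal tubular epithelial cells, and a single line grown in a dish stands here for the tubule. All samples shared 1 condition, medium with 10% FBS and 0.05% DMSO, with no untreated or other group beside it. There were 2 RNA-seq libraries, and 2 ChIP-seq replicates for each of the histone marks H3K4me3, H3K27ac and H3K27me3. The labels do not say whether replicates came from separate cultures, so an SD over 2 libraries may cover technical spread only.

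The tight junction seals the space between neighbouring epithelial cells near their apical surface. Claudins are membrane proteins that polymerise into its strands, and each claudin makes the strand tighter or opens a path for particular ions, so the set that a tubule segment expresses decides what passes between its cells. In the kidney, CLDN2 is known from the proximal tubule, CLDN16 from the thick ascending limb, and CLDN3, CLDN4 and CLDN7 from more distal segments. H3K4me3 marks promoters, H3K27ac marks active promoters and enhancers, and H3K27me3 marks chromatin silenced by Polycomb.

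Sequence just before the start is shown for 3 claudins that carried different sets of marks there, and for the short gap between CLDN1 and CLDN16. For CLDN3, CLDN4 and CLDN2 the 250 bases before the canonical start were read from GRCh37, at chr7:73184601-73184850 (minus strand), chr7:73245076-73245325 (plus strand) and chrX:106163382-106163631 (plus strand). The gap is chr3:190040236-190040329, plus strand, the 94 bases between the CLDN1 start and the most upstream CLDN16 start, which run in opposite directions. Capitals mark GC boxes, GGGCGG on either strand, and no other motif searched (E-box, TATA box or CCAAT box) was found in these stretches.
CLDN3: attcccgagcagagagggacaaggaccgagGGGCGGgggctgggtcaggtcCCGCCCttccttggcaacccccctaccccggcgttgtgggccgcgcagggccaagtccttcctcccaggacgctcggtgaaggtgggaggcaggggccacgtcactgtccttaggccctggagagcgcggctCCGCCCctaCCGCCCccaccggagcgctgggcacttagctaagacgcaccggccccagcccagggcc
CLDN4: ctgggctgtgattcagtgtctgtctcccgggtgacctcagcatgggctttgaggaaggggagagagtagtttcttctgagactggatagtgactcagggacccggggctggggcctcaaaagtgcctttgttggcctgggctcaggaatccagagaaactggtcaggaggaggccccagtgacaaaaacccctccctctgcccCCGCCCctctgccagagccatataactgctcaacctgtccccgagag
CLDN2: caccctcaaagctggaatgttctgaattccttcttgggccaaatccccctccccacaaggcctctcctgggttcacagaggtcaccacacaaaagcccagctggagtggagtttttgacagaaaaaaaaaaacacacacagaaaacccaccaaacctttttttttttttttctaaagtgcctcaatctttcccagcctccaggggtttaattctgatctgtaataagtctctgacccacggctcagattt
CLDN1-CLDN16: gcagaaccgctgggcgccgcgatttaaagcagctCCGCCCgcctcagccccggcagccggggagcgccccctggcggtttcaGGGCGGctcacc

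The CLDN3 stretch holds 19 CpG and 4 GC boxes, the CLDN4 stretch 4 CpG and 1 GC box, and the CLDN2 stretch 1 CpG and no GC box. The CLDN4 stretch lies in an exon of 2 other CLDN4 transcripts that start farther upstream. All 250 bases of the CLDN3 stretch were under H3K4me3 peaks in both replicates and none under H3K27ac. The CLDN2 stretch showed the reverse, with all 250 bases under H3K27ac peaks in both replicates and none under H3K4me3. The CLDN4 stretch was under both marks, with 250 and 152 bases covered by H3K4me3 in replicates 1 and 2 and 250 and 77 by H3K27ac. The gap between CLDN1 and CLDN16 holds 11 CpG and was wholly under H3K4me3 in both replicates, while H3K27ac covered it in replicate 1 only.

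Over windows of 300 bases (250 before to 50 after the canonical start), the median of 19547 protein-coding promoters was 23 CpG. CLDN2 had 2, and 5.33% of promoters had fewer. CLDN4 and CLDN16 had 5 each, and 15.3% of promoters had fewer. The other members had between 24 (CLDN3) and 36 (CLDN10 and TJP1). A GC box was in 7 of the 10 windows against 61.8% of all promoters, on either strand as for the other motifs. The letters CCAAT were in 2 of the windows against 36.0% of promoters. The letters TATAAA of the TATA box were in 0 of them, against 9.59% of promoters. The E-box CACCTG, which Snail and ZEB repressors bind, was in 5 against 20.3%. The E-box windows were those of CLDN7 with 5 matches, F11R with 3, OCLN with 2, and CLDN3 and CLDN16 with 1 each. These matches describe letters in the windows, not binding, and the canonical start of a gene need not be the start in use.

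Expression was read as FPKM, fragments scaled by transcript length and by the mapped fragments of the library, summed over the transcripts of a gene. The libraries held 5.67 and 5.52 Gb of aligned sequence and correlated at r = 0.994 across protein-coding genes, on log10(FPKM + 1), where genes are not independent replicates. Of 19645 protein-coding genes, 58.8% reached an FPKM of 1 in both libraries. Of the 10 tight junction genes, 4 did: F11R, CLDN1, TJP1 and CLDN2. In library 1 alone the count was 5, with CLDN4, against 59.6% of genes, and CLDN3 lay just under 1 there.

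CLDN1 (ENSG00000163347, chromosome 3 from 190023496 to 190040235, minus strand) is a barrier-forming claudin. Its FPKM was 37.4 in library 1 and 35.3 in library 2, a mean of 36.4 ± 1.45 (SD, n = 2 here and at each mean that follows). The transcript ENST00000295522 of 4 exons carried nearly all of it, at 37.0 and 35.2. CLDN1 thus stood at percentiles 91.4 and 90.8 of protein-coding genes.

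CLDN2 (ENSG00000165376, chromosome X from 106143394 to 106174091, plus strand) forms channels for cations and water. Its FPKM was 8.44 and 7.82, with a mean of 8.13 ± 0.439. The sum was stable, but its assignment to transcripts was not. ENST00000541806 was listed at 4.06 in library 1 and 7.81 in library 2, while ENST00000540876 was listed at 4.38 and 0.006. These 2 transcripts share a last exon of 2809 bp, that of the canonical ENST00000336803 is 2811 bp, and all 3 differ in short first exons, whose coverage was at most 0.852 in either library. The transcript split therefore rests on almost no reads that separate the transcripts, and it gives no start site in use. ENST00000336803, whose start set the CLDN2 stretch and promoter window above, was listed at 0.002 and 0.0. CLDN2 lies wholly within MORC4, which is on the opposite strand and had FPKM 25.6 in both libraries. Whether counting used strand is not given in the sources used here, so reads of both genes where exons overlap cannot be told apart.

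CLDN4 (ENSG00000189143, chromosome 7 from 73213872 to 73247020, plus strand) is a claudin that tightens junctions against cations. It had an FPKM of 44.4 in library 1 and 0.406 in library 2. Its mean of 22.4 ± 31.1 describes neither library. CLDN3 (ENSG00000165215, chromosome 7 from 73183327 to 73184600, minus strand), a sealing claudin, had 0.997 and 0.558, with a mean of 0.777 ± 0.310. CLDN7 (ENSG00000181885, chromosome 17 from 7163222 to 7167302, minus strand), which is common in distal segments, had 0.112 and 0.036. Apart from CLDN4 in library 1, these claudins of distal segments stayed under an FPKM of 1.

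CLDN16 (ENSG00000113946, chromosome 3 from 190040330 to 190129927, plus strand) is needed for magnesium and calcium uptake between cells of the thick ascending limb. Its FPKM was 0.199 and 0.213. ENST00000468220, whose start is the one next to CLDN1, was listed at 0.135 and 0.078, and ENST00000264734, from the canonical start, at 0.064 and 0.136. CLDN10 (ENSG00000134873, chromosome 13 from 96085858 to 96232013, plus strand), an ion channel claudin whose isoforms differ in the charge they pass, had 0.029 and 0.047. All of the CLDN10 value was assigned to ENST00000376873, and the 2 other transcripts, the canonical one among them, were listed at 0 in both libraries. Exons 1 to 3 of ENST00000376873 had no coverage in either library, and its last exon of 1860 bp had 0.235 and 0.289. The assignment therefore gives no start site in use. DZIP1, on the opposite strand with FPKM 9.81 and 10.7, overlaps the end of the CLDN10 gene. Whether these reads came from CLDN10 cannot be told. These levels rested on few reads, since the aligned sequence over CLDN10 came to 0.436 and 0.694 kb and that over CLDN16 to 1.63 and 2.70 kb.

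Occludin, the product of OCLN (ENSG00000197822, chromosome 5 from 68788119 to 68853931, plus strand), is a membrane protein of the strands outside the claudin family. It had an FPKM of 0.864 and 0.522, with a mean of 0.693 ± 0.242. F11R (ENSG00000158769, chromosome 1 from 160965001 to 160991133, minus strand) encodes the adhesion protein JAM-A, which helps to place the junction. With 55.4 and 46.4, a mean of 50.9 ± 6.35, it was the highest of the 10 genes. Within the gene, ENST00000368026 was listed at 27.9 and 27.1, and ENST00000537746 at 26.4 in library 1 and 18.5 in library 2. Over an exon of 49 bp in each, coverage rose from 155 to 219 in the former and fell from 253 to 171 in the latter. The split between these transcripts is an estimate, and a difference of isoforms between the libraries was not tested.

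TJP1 (ENSG00000104067, chromosome 15 from 29991571 to 30261118, minus strand) encodes ZO-1, the scaffold that ties claudins and occludin to actin. Its FPKM was 18.4 and 20.3, with a mean of 19.4 ± 1.34. An exon of 240 bases is known to encode the alpha domain of ZO-1. Transcripts that hold it were assigned 62.3% and 61.4% of the FPKM of the transcripts spanning it. Transcripts without it were assigned 37.7% and 38.6%, among them the retained-intron transcript ENST00000561307 (0.321 and 0.308). In ENST00000346128, which holds the exon, its coverage was 28.1 and 23.9. The exons of 873 and 351 bp on either side had 48.0 and 47.1, and 51.3 and 46.7. ENST00000356107, which also holds it, had lower coverage there than on either side too. The assigned shares were similar in both libraries, but they are estimates and do not settle which form was more common.

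By mean FPKM the order was F11R, CLDN1, CLDN4, TJP1, CLDN2, CLDN3, OCLN, CLDN16, CLDN7 and CLDN10. The ranges over the 2 libraries overlapped for CLDN1 with CLDN4, CLDN4 with TJP1, CLDN3 with OCLN, and CLDN7 with CLDN10, so the order within these pairs was not settled. The range of CLDN4, 0.406 to 44.4, also spanned those of CLDN2, CLDN3 and OCLN, and in library 2 CLDN4 was below all 3, so its place was open from CLDN1 down to OCLN. The other neighbours in the order did not overlap, which with 2 libraries is no test.

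**Figure D1:**
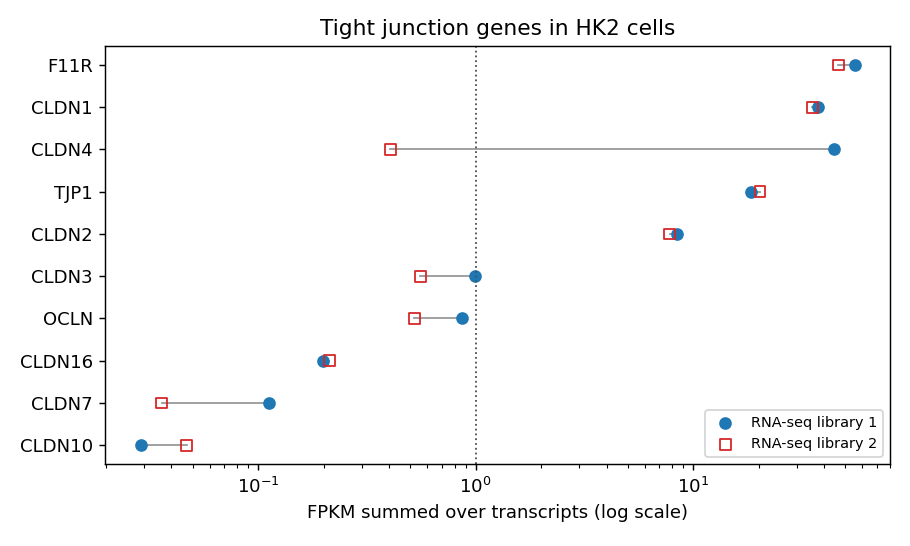
FPKM summed per gene (log scale) for the 10 tight junction genes in RNA-seq library 1 (filled circles) and library 2 (open squares), joined by a line, with a dotted line at an FPKM of 1. The pairs lie close together for F11R, CLDN1, TJP1 and CLDN2, while CLDN4 runs from 0.406 to 44.4.

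The library difference of CLDN4 was set against all protein-coding genes. On log2((FPKM + 0.1) ratio), library 2 over library 1, CLDN4 was at -6.46, or 109-fold lower in library 2 as a plain ratio. Among the 11748 genes whose mean FPKM reached 1, 5.55% differed by more than 1.5-fold in either direction, 2.53% lower and 3.02% higher in library 2. Of the 5 tight junction genes in that set, CLDN4 was the 1 past this fold. The other 4 had log2 ratios of -0.26 (F11R), -0.11 (CLDN2), -0.08 (CLDN1) and 0.14 (TJP1), against a median absolute log2 ratio of 0.131. None of the 4429 genes within 2-fold of the mean FPKM of CLDN4 had as large a ratio, and their SD was 0.245. Among the 8732 genes with a mean of at least 5, CLDN4 was the lowest in library 2 relative to library 1, and among those with a mean of at least 1 its absolute ratio ranked 2.

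Both the transcript estimate and its coverage were lower in library 2. ENST00000340958, a single exon of 1831 bp, had an FPKM of 44.4 and 0.354 and a coverage of 252 and 1.95 reads per base. The aligned sequence over CLDN4 was 461 kb in library 1 and 4.78 kb in library 2. Among 237 genes whose highest transcript has a single exon, 5.49% passed 1.5-fold, close to the share of all genes.

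The genes next lowest in library 2 among those with a mean of at least 5 were AC004080.3 (20.6 and 0.579), the immediate early gene IER2 (19.6 and 1.17), the lysosomal reductase IFI30 (109.5 and 20.1), the phosphatase PDXP (17.7 and 3.59) and the readthrough gene RBM14-RBM4 (15.8 and 3.82). All 5 had H3K4me3 peaks at a start in both replicates, as 70.3% of protein-coding genes did. H3K27ac was there in both replicates too, except at IFI30, which had it in replicate 1 only. In log2 they ranged from -4.93 to -2.02, smaller than CLDN4.

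CLDN3 lies close to CLDN4, with canonical starts 60726 bp apart and facing away from each other. CLDN3 was also lower in library 2, by 1.79-fold or -0.74 in log2, but 222 of 1493 genes of like FPKM had as large a ratio. The remaining protein-coding genes with a start within 100 kb were within 1.5-fold between the libraries or at 0. BUD23 had 53.6 and 47.9, ABHD11 11.5 and 9.82, STX1A 7.39 and 8.13, DNAJC30 4.66 and 4.13, METTL27 0.503 and 0.487, and TMEM270 was listed at 0 in both. Their log2 ratios lay between -0.23 and 0.14. The low value in library 2 was thus found at CLDN4 and not across its neighbours.

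Without the filter on low FPKM, CLDN3, CLDN7 and OCLN also passed 1.5-fold, all lower in library 2 like CLDN4. Their aligned sequence was small, at 7.20 and 3.92 kb for CLDN3, 18.1 and 9.19 kb for OCLN, and 0.620 and 0.315 kb for CLDN7. Among 8 epithelial markers, the summed FPKM was 430.1 in library 1 and 390.2 in library 2, with KRT18 (68.0 and 44.2) and KRT7 (50.8 and 29.2) over 1.5-fold lower and RAB25 listed at 0 in both. In the same list KRT8 (179.0 and 184.3), KRT19 (122.8 and 123.1), ESRP2 (8.07 and 8.46) and CDH1 (0.210 and 0.283) were level or higher in library 2, and ESRP1 was lower (1.14 and 0.644). Among 5 mesenchymal markers the sums were 3142 and 3576, with VIM over 1.5-fold higher in library 2 (708.7 and 1133). Of the others, FN1 (2333 and 2343), CDH2 (59.3 and 59.7) and COL1A1 (40.3 and 39.9) were level, and PDGFRB (0.933 and 0.693) was lower. The part of these shifts in the CLDN4 difference was not tested. In bulk RNA, fewer cells expressing a gene and less RNA of it per cell cannot be told apart. With 1 library on each side there is no replicate of the difference.

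**Figure D2:**
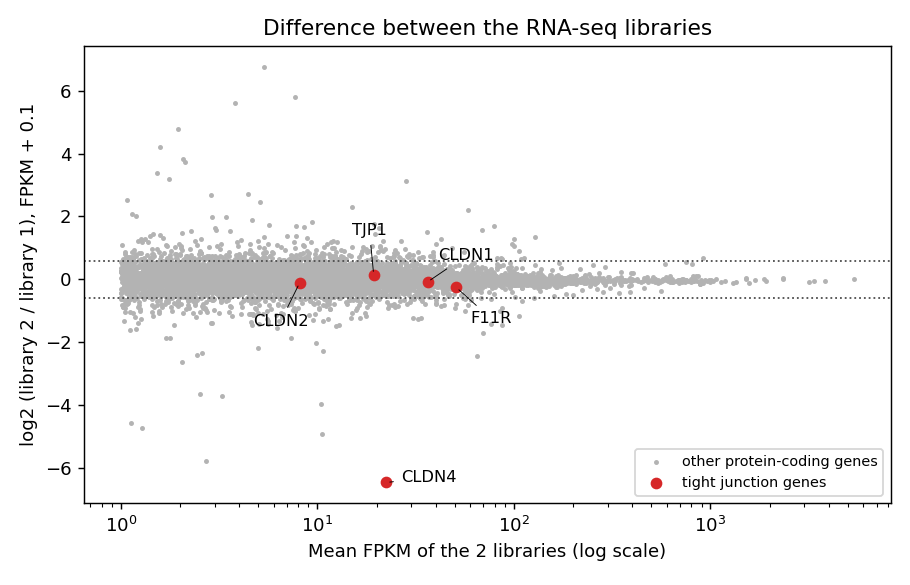
Difference between the RNA-seq libraries, log2 of library 2 over library 1 with 0.1 added to each FPKM, against the mean FPKM (log scale) for 11748 protein-coding genes, with dotted lines at 1.5-fold. CLDN4 lies at -6.46, and CLDN1, CLDN2, TJP1 and F11R lie between the lines.

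At start sites, a mark was counted where a peak of each replicate came within 1 kb of any annotated start of the gene. The peak lists hold no score, so the depth behind a peak is unknown. The replicates differed in the number of peaks (28615 and 73505 for H3K4me3, 57687 and 38554 for H3K27ac, 45858 and 32639 for H3K27me3) and in width. H3K4me3 was present in both replicates at 7 of the 10 genes against 70.3% of protein-coding genes, and H3K27ac at 6 against 55%. Both marks together were at 5 (CLDN1, CLDN4, CLDN16, TJP1 and F11R) against 53.5%. H3K27me3 was at 2 (OCLN and TJP1) against 11.4%. As a group, then, the genes were near the share of all genes for the active marks, and the particulars lay in single members.

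**Figure D3:**
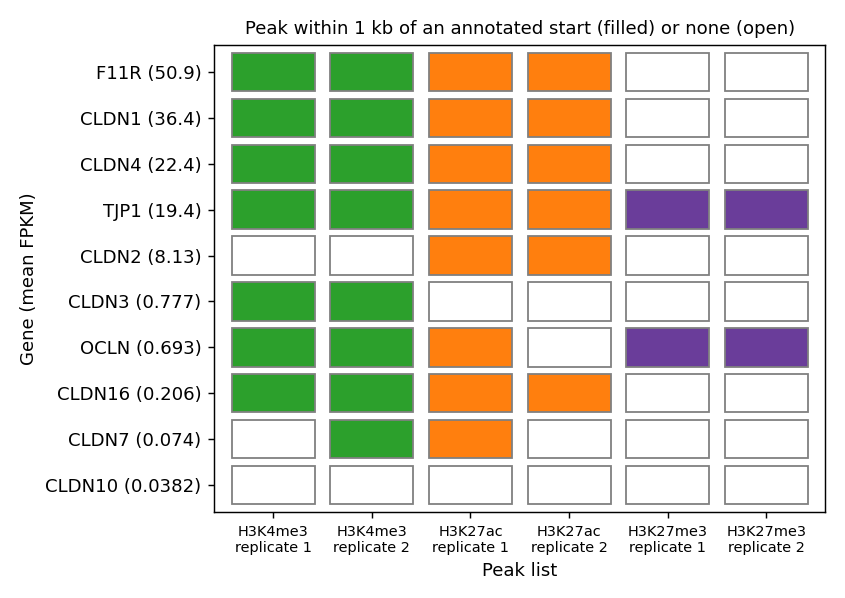
Peaks within 1 kb of any annotated start (filled, coloured by mark) or none (open) in the 6 peak lists, for the 10 tight junction genes ordered by mean FPKM (in parentheses). F11R, CLDN1, CLDN4, CLDN16 and TJP1 have H3K4me3 and H3K27ac in both replicates, CLDN2 has H3K27ac alone, and CLDN10 has no peak.

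CLDN4 had both active marks in both replicates at its canonical start and no H3K27me3. The H3K4me3 peaks over that start were 2389 and 1745 bp wide, and the H3K27ac peaks 6791 and 1210 bp. Over the whole gene, H3K27ac covered 23.8% and 10.7%. Of protein-coding genes with both active marks in both replicates, 91.9% reached an FPKM of 1 in both libraries, whereas CLDN4 reached it in library 1 only. The ChIP samples and the RNA libraries are separate preparations, and the marks do not show which RNA library is nearer to the state of the ChIP samples.

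CLDN3 had H3K4me3 in both replicates, in peaks of 842 and 2180 bp, with no H3K27ac peak and no H3K27me3 peak within 1 kb. This combination of H3K4me3 in both replicates with H3K27ac in neither was found at 6.34% of protein-coding genes, and 9.32% of those reached an FPKM of 1 in both libraries. CLDN3 was among the genes that did not. Between the 1 kb windows around the canonical starts of CLDN3 and CLDN4 lay 1 and 3 H3K4me3 peaks, 1 and 2 H3K27ac peaks and no H3K27me3 peak. The H3K4me3 peak of replicate 1 counted there lay within 1 kb of other annotated CLDN4 starts.

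**Figure D4:**
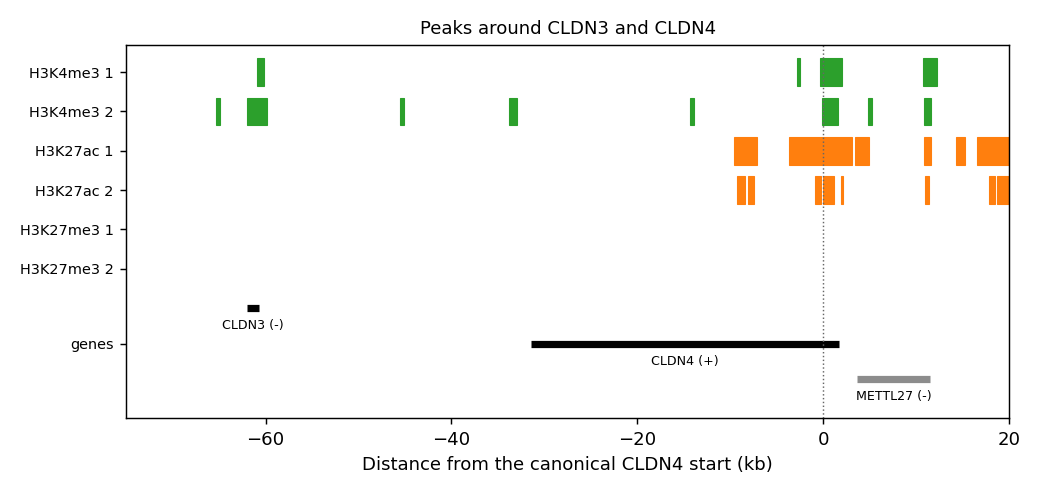
Peaks of each replicate (1 and 2) of the 3 marks around CLDN3 and CLDN4, by distance in kb from the canonical CLDN4 start (dotted line), with genes and their strands as bars. H3K27ac lies around the CLDN4 start in both replicates and not at CLDN3, where H3K4me3 is present alone.

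CLDN2 had the opposite pattern. H3K27ac peaks lay within 1 kb of all 3 of its annotated starts in both replicates, and H3K4me3 was in neither replicate at any start or over the gene. H3K27ac in both replicates with H3K4me3 in neither was found at 119 genes, 0.606% of protein-coding genes. Of these 119 genes, 22 or 18.5% reached an FPKM of 1 in both libraries, and CLDN2 ranked 5 by mean FPKM. H3K27ac covered 51.3% of the CLDN2 gene in 9 peaks in replicate 1 and 38.4% in 10 peaks in replicate 2. Of protein-coding genes, 3.57% and 1.79% were covered at least as much. The widest of these peaks in replicate 1, of 12300 bp, began 5935 bp downstream of the canonical start and ran past the end of the gene. Because CLDN2 lies within MORC4, these peaks are within both genes.

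CLDN1 had H3K4me3 and H3K27ac at its canonical start in both replicates. That start is 95 bp from the most upstream start of CLDN16, so the same H3K4me3 peaks, of 2746 and 1140 bp, were counted for both genes. At the canonical CLDN16 start, 65717 bp from that of CLDN1, H3K27ac was present in both replicates and H3K4me3 in neither. Counted at canonical starts only, CLDN16 therefore left the group with both active marks. H3K27ac continued over the CLDN16 gene in 8 and 5 peaks, covering 18.3% and 7.48% of it, at an FPKM of about 0.2. No other protein-coding gene starts between CLDN1 and CLDN16.

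**Figure D5:**
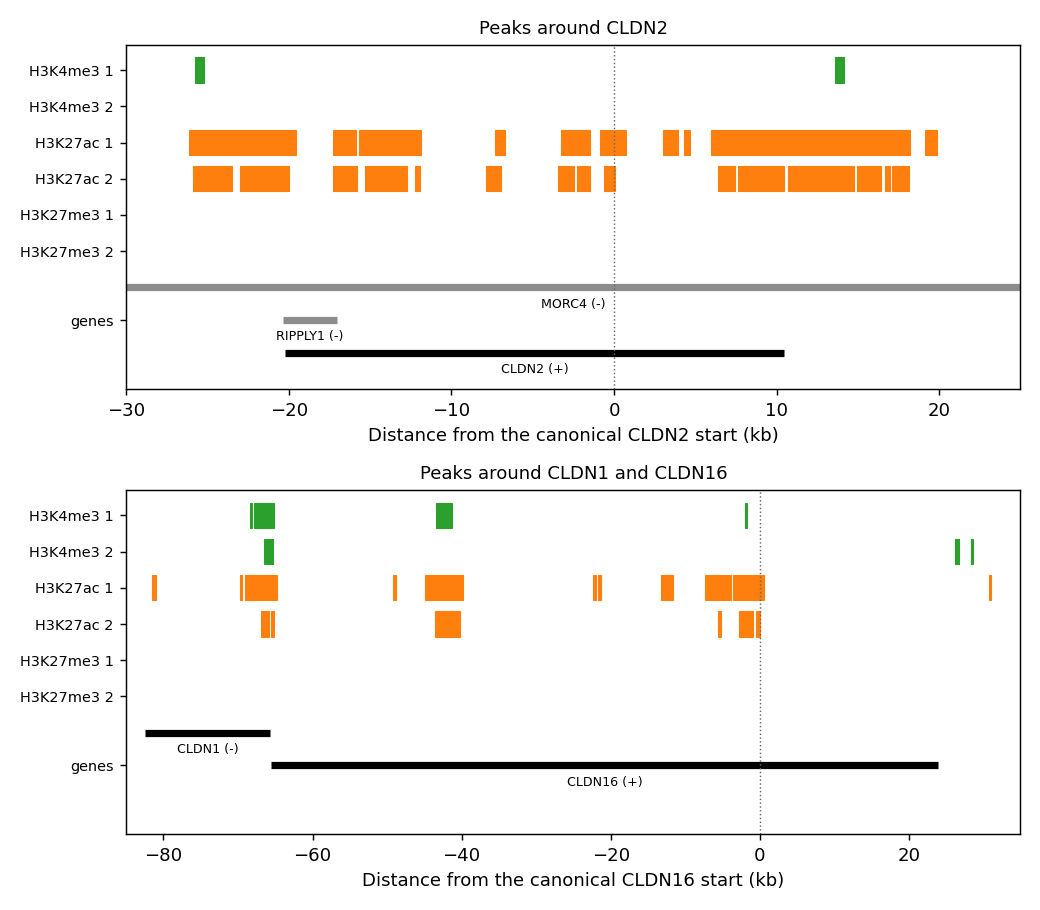
Peaks of each replicate (1 and 2) of the 3 marks around CLDN2 (top) and around CLDN1 and CLDN16 (bottom), by distance in kb from the canonical start of CLDN2 or CLDN16 (dotted lines), with genes and their strands as bars. H3K27ac peaks spread over CLDN2 with no H3K4me3 at its starts, and the H3K4me3 shared by CLDN1 and CLDN16 lies at the CLDN1 end.

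F11R had both active marks at its canonical start in both replicates and no H3K27me3, with H3K27ac over 22.6% and 11.6% of the gene. TJP1 had them at its canonical start too, at 30114671. H3K27me3 at TJP1 was near a different start, at 30261118, where replicate 1 had a peak from 30258281 to 30264537 and replicate 2 a peak from 30259335 to 30261740. That distal start also had H3K4me3 in both replicates and H3K27ac in replicate 1 only. ENST00000356107, the transcript annotated from it, was listed at an FPKM of 2.29 and 3.12, out of 18.4 and 20.3 for the gene. That start is from a later annotation release than the transcript models used for FPKM. The quantified model begins with exons of 27, 57 and 125 bp, as does that of ENST00000545208, whose annotated start is 30114231. In ENST00000356107 the exon of 27 bp had a coverage of 1.14 and 1.98. The FPKM therefore does not measure use of the distal start. Most of the FPKM of TJP1 was assigned to other transcripts.

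OCLN was the other gene counted with H3K27me3, but the peak of replicate 1 (68786469 to 68787393) and that of replicate 2 (68788210 to 68789228) did not overlap. H3K4me3 was present at OCLN in both replicates and H3K27ac in replicate 1 only. Of the 7.02% of protein-coding genes with H3K4me3 and H3K27me3 in both replicates, 24% reached an FPKM of 1 in both libraries, as TJP1 did and OCLN did not. CLDN7 had H3K4me3 in replicate 2 only and H3K27ac in replicate 1 only. CLDN10 was the single member with no peak of any list within 1 kb of a start, as 15.1% of protein-coding genes were, of which 2.19% reached an FPKM of 1. Within the CLDN10 gene there were 2 and 1 small H3K27me3 peaks, covering 0.488% and 0.239%.

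Other components of the junction were read from lists drawn up with earlier results known. Of 17 other claudins, 3 reached an FPKM of 1 in both libraries, against 58.8% of protein-coding genes, and 7 were listed at 0 in both. The 3 were CLDN11 (30.8 and 28.7), CLDN12 (13.3 and 7.09, over 1.5-fold lower in library 2) and CLDN15 (3.88 and 3.52). CLDN19, the partner of CLDN16 in the thick ascending limb, was listed at 0 in both. The median of mean FPKM in this list was 0.149.

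Of 11 other membrane proteins of the junction, 9 reached an FPKM of 1 against the same 58.8%, led by the adhesion protein EPCAM (39.9 and 41.4), the tricellular junction protein LSR (14.0 and 14.9) and the polarity protein CRB3 (11.6 and 10.8). ILDR2 was the 1 over 1.5-fold apart, at 7.81 and 3.22. Of 19 scaffold and cytoplasmic proteins, 15 reached an FPKM of 1, again against 58.8%, and 0 of these were over 1.5-fold apart. They were led by the ZO-1 partner YBX3 (88.9 and 90.4) and the polarity proteins PARD3 (38.5 and 39.4) and PRKCZ (28.9 and 30.6). Both active marks, found at 53.5% of protein-coding genes, were at the start of 16 of the 19 scaffold genes, 3 of the 17 other claudins and 3 of the 11 other membrane proteins. Among the latter, CRB3, JAM2, JAM3, ILDR2, MARVELD3, ESAM and CXADR had H3K4me3 in both replicates and H3K27ac in replicate 1 only. The H3K27ac list of replicate 2 was the shorter (38554 peaks against 57687), and its part in these misses was not tested. ILDR1 had H3K4me3 in both replicates and H3K27ac in neither. MARVELD3 and ILDR1 also had H3K27me3 in both replicates, as 11.4% of protein-coding genes did.

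The proximal tubule label was read against its markers. Of 10 proximal tubule markers, 2 reached an FPKM of 1, GGT1 (64.1 and 58.1) and the glucose transporter SLC5A2 (1.56 and 2.36), and LRP2, SLC5A1, SLC22A6 and HNF4A were listed at 0 in both libraries. Of 8 epithelial markers 5 did, led by the keratins KRT8 (179.0 and 184.3) and KRT19 (122.8 and 123.1), while CDH1, the epithelial cadherin, was at 0.210 and 0.283. Of 5 mesenchymal markers 4 did, with FN1 at 2333 and 2343. All 4 thick ascending limb markers (UMOD, SLC12A1, CLDN19 and KCNJ1) were listed at 0. None of 7 distal tubule and collecting duct markers reached 1, led by AQP3 (0.672 and 0.528) and GATA3 (0.557 and 0.211), and AQP2 and ATP6V0D2 were listed at 0. Of 5 endothelial markers ESAM did (1.38 and 1.04), CLDN5 was at 0.190 and 0.221, and KDR was listed at 0.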

How the data were processed

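RNA-seq libraries and ChIP-seq peak lists of HK2 cells were used, and the HiChIP and input samples were not analysed here. RNA reads were mapped by the authors with HISAT2. FPKM, TPM and coverage were deposited per transcript, and per the file headers came from StringTie 1.3.3. ChIP reads were aligned with Bowtie2 to hg19 by the authors, with MACS2 peaks for every replicate separately. Only the limits of each peak were deposited, so no depth, height or p-value of a peak is known. The sources name hg19 for the RNA mapping, but the deposited transcripts are those of GENCODE 27 on GRCh38. RNA coordinates were therefore not used, and genes were joined to GENCODE 44 lifted to GRCh37 by Ensembl identifier without version. ChIP replicates without a number in the labels were called replicate 1.

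FPKM was summed over transcripts per gene. Aligned sequence is coverage times transcript length, summed. Library ratios used a pseudocount of 0.1, which understates changes of low genes, and a minimum mean FPKM of 1. With 1 condition and 2 libraries no test was made. Peaks on the 22 autosomes, X and Y within 1 kb of an annotated start were counted. Python 3.11.15, numpy 2.4.6, pandas 2.3.3 and matplotlib 3.10.9 were used, and the counting functions were tested on simulated data. Promoter sequence was read from GRCh37 at GENCODE canonical starts.

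The members and lists were chosen with earlier results of these data known. Named were all members, the 3 highest genes of each list, the 2 highest of each marker list, genes listed at 0, genes starting within 100 kb of CLDN3 or CLDN4, and the 5 genes lowest in library 2 next to CLDN4. An item that this rule takes in is not reported here. CDH1, ESRP1, ESRP2, CDH2, COL1A1, PDGFRB, ILDR2, KRT7, KRT18 and VIM's ratio were added after their values were seen. So were the overlapping genes MORC4 (of CLDN2) and DZIP1 (of CLDN10), and the marks of JAM2, JAM3, MARVELD3, CXADR and ILDR1. Alternatives covered FPKM minimum, TPM, pseudocount, centring, coverage, highest transcript, peak window and width, start choice and replicates.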

Additional observations from a re-analysis of the deposited data

How the results depend on the processing

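The count of 4 genes with an FPKM of at least 1 became 10 with no minimum (all above 0) and 7 with TPM of at least 1, and ranged from 4 to 5 with either library alone. The count of 1 gene over 1.5-fold between libraries became 4 with no filter on low FPKM, and 2 with the highest transcript only, where CLDN2 joined through its unstable transcript split. The log2 ratio of CLDN4 of -6.46 was -5.01 with a pseudocount of 1, -6.74 with 0.01 and -6.75 from coverage, moves larger than the SD of 0.245 among genes of like level. That of CLDN3, -0.74, lay between -0.86 and -0.36 over 6 alternatives, moves smaller than the SD of 0.617 among its like genes. Neither difference has a value without a library. The count of 5 genes with H3K4me3 and H3K27ac at a start ran from 4 (canonical starts) to 7 (either replicate), and from 5 to 6 with either replicate alone. The 2 genes with H3K27me3 became 1 within 500 bp, 0 at canonical starts, and 1 where the peaks of both replicates had to overlap, an alternative chosen after seeing the data, and remained 2 with either replicate alone. No paired analysis was possible because all samples shared 1 condition and no test was made. Depth limits what can be said of CLDN7, CLDN10 and CLDN16, and peaks carry no depth.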

Other observations

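Transcription factors tied to epithelial identity were uneven in HK2 cells. Of 15 in the list, 6 reached an FPKM of 1 in both libraries, against 58.8% of protein-coding genes, and 6 were listed at 0 in both. PAX8, a kidney lineage factor, was at 100.2 and 104.1, and ELF3 at 33.6 and 32.7. GRHL2, OVOL1, EHF, TFAP2B, HNF4A and CDX2 were listed at 0. H3K27me3 was at a start of 7 of the 15 in both replicates, against 11.4% of protein-coding genes, and both active marks at 4, against 53.5%.

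Of 7 repressors that bind E-boxes, 5 reached an FPKM of 1 in both libraries, against 58.8%, with SNAI1 at 12.95 and 12.05, SNAI2 at 9.76 and 10.2 and TWIST1 at 4.34 and 3.89. TWIST2 was listed at 0. Both active marks were at the start of 5 of the 7, against 53.5%, and H3K27me3 at 2, against 11.4%. None of the genes of either list with a mean FPKM of at least 1 differed by over 1.5-fold between the libraries.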
